A study of Mus musculus with 4 samples.

Results

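The insulin-like growth factor (IGF) genes described here are the ligands Igf1 and Igf2, the receptor Igf1r and the binding proteins Igfbp2, Igfbp3, Igfbp4, Igfbp5, Igfbp6 and Igfbp7. They were taken as every probe set that the platform's annotation gives to 1 of these 9 genes, which came to 26 of the 45037 probe sets in the table, and 9 of its 18193 named genes. Transcripts were measured in intact skin, dermis included, of mouse embryos at stage E14.5 on 4 Affymetrix MOE430 2.0 arrays. The 2 mutant embryos were KRT14-Cre Ctnnb1(Ex3)fl/+, with Cre driven by the KRT14 promoter and 1 floxed allele, and the 2 controls were littermates, whose genotype the labels do not spell out. The KRT14 promoter is active in keratinocytes, so beta-catenin, the effector of Wnt signalling, was stabilised in the epithelium and not by design in the dermis. Whole skin was read, and in such bulk tissue a change in the number of cells of a type and a change of RNA per cell cannot be told apart.

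IGF1 and IGF2 are secreted growth factors that activate the receptor tyrosine kinase IGF1R, which signals through insulin receptor substrates to PI3K and Akt. The IGF binding proteins hold the ligands outside the cell and can block or prolong their action, and proteases such as PAPP-A and PAPP-A2 release the ligands by cutting them. In skin IGF1 comes mainly from dermal cells, including the dermal papilla of the hair follicle, and acts on the keratinocytes of the epidermis and the hair matrix, which carry the receptor.

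The deposited values are signal intensities on a linear scale, with array medians from 27.7 to 32.0. The arrays differed in the levels of cell type markers. Beside the counts of called markers, 4.96% of all genes tested were called higher in mutant skin and 3.78% lower, so 1 of 8 is near that share. The 8 keratinocyte markers (3 lower in mutant skin, 5 not passing) summed to signals of 6910.3 and 9272 in mutant skin, against 12818.5 and 17962 in control skin, and the 8 dermal fibroblast markers (2 lower, Twist2 and Dpt, and 6 not passing) to 30645 and 26843 against 38433 and 33500.3. Skeletal muscle markers (1 of 8 lower) summed to 5893 and 3602 in mutant skin and 10232 and 7267 in control skin, while macrophage markers (3 of 6 higher) summed to 3792 and 4368 in mutant skin and 2826 and 2187 in control skin. Of 11 cartilage markers none passed a limma adjusted p of 0.05, although 8 had an unadjusted p under 0.05. Among these 8 only Cnmd had a mean control signal above 31.1, the minimum for testing. The rest were bright enough to be tested because of mutant skin alone. The share of all genes at that unadjusted level is not given here, so the 8 are not weighed against it. Mutant replicate 1 stood apart, with a sum of 11215 against 479 in mutant replicate 2 and 248 and 194 in the controls. The 3 tested bone markers were called higher, 2 of them tested only through the mutant signals because their control means were under the filter of 31.1, and their sum was 1089 and 588 in mutant skin and 73.9 and 55.9 in control skin. No marker of these lists was listed at 0. All these levels are on the scale as deposited: scaled to the 12 spiked-in poly-A probe sets, which were 2.23-fold higher in controls, the median log2 fold change of all tested probe sets was 1.09 instead of -0.01, so every change below is relative to the whole array. The part of these differences in the IGF results was not tested, and values without mutant replicate 1 are given where that array changes a call or a direction. Mutant replicate 2 alone had a female pattern of Xist.

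Setting mutant against control skin shows how the IGF genes differ when the embryonic epithelium carries active beta-catenin. With 1 probe set per gene, the called genes were all binding proteins, which make up 6 of the 9 genes. Igfbp2, Igfbp3, Igfbp4 and Igfbp7 were higher in mutant skin. Igfbp5 was lower, with a log2 fold change of -1.0 that became 0.15 on a scale set by spiked-in poly-A RNA. With no filter on signal, or without a variance trend in the fit, Igfbp2 alone of the 9 genes stayed called. The ligand Igf1 was higher on both mutant arrays, but the controls were 1.85- to 2.62-fold apart and 1 of its 4 probe sets passed. Neither Igf2, Igf1r nor Igfbp6 passed on any probe set. With the probe set of highest mean signal for each gene, 4 of the 9 genes were called higher and 1 lower at a limma adjusted p of 0.05 over all tested probe sets. Over all 11549 genes tested, 4.96% were called higher and 3.78% lower, 8.74% in either direction. The median log2 fold change of the 9 genes was 0.68, and that of all genes tested -0.02.

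**Figure D1:**
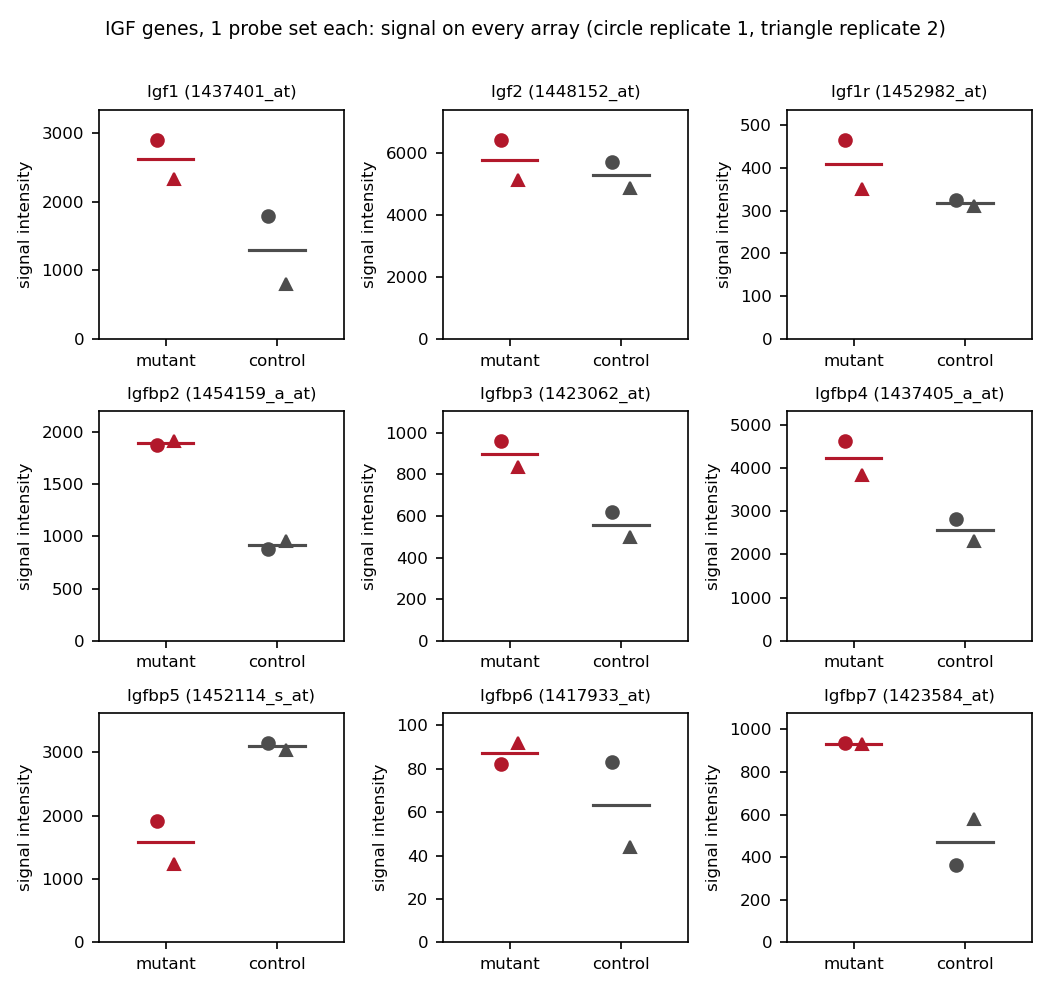
Signal intensity (linear, y axis from 0) of the 9 IGF genes on each mutant and control array, with a line at the mean of each group (n = 2). For 6 genes, Igf1, Igf1r, Igfbp2, Igfbp3, Igfbp4 and Igfbp7, both mutant arrays lie above both controls. Igfbp5 is the 1 gene with both mutant arrays below both controls on this scale; its log2 fold change turns to 0.15 on the poly-A spike scale.

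Of the 26 probe sets, 23 reached the mean signal of 31.1 needed for testing, the median of all probe sets. The lowest group mean among the tested ones was 63.5, so none passed the filter through 1 group alone. The 3 dim ones were 1 of 5 probe sets of Igf1r, with signals from 9.43 to 21.5 over the 4 arrays, and 2 of 3 of Igfbp7, with signals from 9.24 to 21.5 and from 2.80 to 6.21. Among the 23, 10 were called higher and 1 lower, where 4.10% and 2.93% of all probe sets were, or 7.03% together. Both mutant arrays were above both controls for 17 of the 23, against 26.6% of all tested probe sets, and below both for 2, against 27.7% (54.3% in either direction). Counted by gene, both mutants were above both controls for 6 of the 9 and below for 1, where 26.3% and 30.4% of all genes were, or 56.7% together. Probe sets of 1 gene read the same transcripts and are not independent of each other.

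Igfbp2 encodes a binding protein that also carries an integrin-binding motif. Its single probe set read 1872 and 1911 in mutant skin, against 883 and 952 in control skin. The groups were far apart, and the arrays of each group nearly the same. The fold change was 2.05 with a 95% interval from 1.74 to 2.42 (log2 fold change 1.04, SE 0.10, limma adjusted p = 0.00258). This call was kept at the adjusted threshold in all 12 refits with limma, with adjusted p from 7.95e-04 to 0.0161; scaling to the poly-A spikes, which also called it, is not among the 12. Without each array in turn, the log2 fold change ran from 0.98 to 1.09.

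On the genome Igfbp2 and Igfbp5 are neighbours on chromosome 1, with no other protein-coding gene between them in the RefSeq annotation of GRCm38.p6. The 250 bases before the annotated start of each gene, for Igfbp2 the first of 2 annotated starts, are shown because the pair changed in opposite directions, except on the poly-A spike scale, where Igfbp5 also had a positive log2 fold change (0.15). The Igfbp2 window shown is chr1:72824230-72824479 on the plus strand, with 67.2% G and C and 14 CpG. The Igfbp5 window is chr1:72874866-72875115 on the minus strand, with 58.8% G and C and 10 CpG.
Igfbp2: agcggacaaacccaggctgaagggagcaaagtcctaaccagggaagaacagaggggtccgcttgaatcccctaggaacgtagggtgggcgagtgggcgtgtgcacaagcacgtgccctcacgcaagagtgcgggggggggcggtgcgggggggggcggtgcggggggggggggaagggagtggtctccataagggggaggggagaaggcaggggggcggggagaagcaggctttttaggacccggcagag
Igfbp5: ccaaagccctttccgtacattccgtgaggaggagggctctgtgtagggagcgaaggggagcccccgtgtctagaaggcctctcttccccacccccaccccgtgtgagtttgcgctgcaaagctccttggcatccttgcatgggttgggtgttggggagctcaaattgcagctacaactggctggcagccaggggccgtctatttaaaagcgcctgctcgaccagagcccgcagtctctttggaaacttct
Neither window holds a TCF/LEF motif, searched on both strands as the letters CTTTGAA, as CTTTGAT, as CTTTGTA and as CTTTGTT. These letters occur in 14.8% of all 32851 promoter windows of the same length in the table, and in 1 of the 13 windows of the 9 IGF genes, that of Igf1. A match describes the letters only and is not a binding site.

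Igfbp5, whose protein binds to extracellular matrix as well as to IGFs, read 1921 and 1239 in mutant skin, against 3149 and 3038 in control skin, on its brightest probe set, one whose suffix _s marks that it may also read other transcripts. Both mutants were below both controls, with the mutants 1.55-fold apart and the controls nearly the same. The log2 fold change was -1.0 (SE 0.20, 95% interval -1.47 to -0.53, limma adjusted p = 0.0326), and 0.15 on the poly-A spike scale (adjusted p = 0.644). With no filter the limma adjusted p was 0.0795, and without a variance trend 0.0752, so the call ended in both fits. Mutant replicate 1, the array with the cartilage signal, was the higher of the mutants, and without it the log2 fold change was -1.31 (limma adjusted p = 0.00202). The call ended without mutant replicate 2, where the log2 fold change was -0.69 (adjusted p = 0.0511), without control replicate 1 (-0.97, adjusted p = 0.0547) and without control replicate 2 (-1.03, adjusted p = 0.0674). The second probe set read 343 and 192 in mutant skin and 478 and 466 in control skin. Its log2 fold change of -0.86 (0.27 on the poly-A spike scale) did not pass with all arrays (limma adjusted p = 0.0970) and did without mutant replicate 1 (adjusted p = 0.00397).

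Igfbp4 encodes a binding protein that mostly restrains IGF action and has also been described as an inhibitor of Wnt signalling. It has 6 probe sets, and all were called higher in mutant skin. The brightest read 4616 and 3836 in mutant skin, against 2813 and 2312 in control skin, a log2 fold change of 0.72 (SE 0.14, limma adjusted p = 0.0335). The dimmest read 494 and 585 in mutant skin and 203 and 154 in control skin, a log2 fold change of 1.56 (SE 0.17, limma adjusted p = 0.00359). The other 4 lay between, at 0.76, 0.93, 1.21 and 1.37, so that the fold ran from 1.65 to 2.95 among probe sets of 1 gene. On none of the 6 did the groups overlap. Of the 6 calls, 4 were kept in all 12 refits with limma. The brightest probe set and the one at 0.76 lost their calls with no filter (limma adjusted p = 0.0825 and 0.0539). Without a variance trend they lost them too (limma adjusted p = 0.0809 and 0.0579). The brightest probe set lost its call without mutant replicate 1 (log2 fold change 0.59, adjusted p = 0.131) or without control replicate 2 (0.58, adjusted p = 0.106), and the probe set at 0.76 lost it without the same arrays (0.67, adjusted p = 0.0762, and 0.63, adjusted p = 0.0641). Of the 6 probe sets 3 carry the suffix _s or _x of sets that may also read other transcripts.

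The promoter window of Igfbp4, chr11:99040994-99041243 on the plus strand, is shown as that of the gene called on the most probe sets. Its capitals mark a TATA box (TATAAA, searched on both strands), which begins 28 bases before the annotated start.
Igfbp4: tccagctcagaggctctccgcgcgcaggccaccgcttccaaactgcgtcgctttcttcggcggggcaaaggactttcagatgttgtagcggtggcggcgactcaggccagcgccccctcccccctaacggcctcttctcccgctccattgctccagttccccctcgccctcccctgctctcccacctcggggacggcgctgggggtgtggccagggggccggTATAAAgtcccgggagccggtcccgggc
The letters TATAAA were found in 12.4% of all promoter windows of this length, and among the 13 windows of the IGF genes in that of Igfbp4 and, on the opposite strand and 148 bases before the start, in that of Igfbp6.

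Igfbp7 encodes a secreted protein of vessel walls and stroma that binds IGFs only weakly. Its brightest probe set read 937 and 931 in mutant skin, against 361 and 580.1 in control skin. The mutants were nearly identical and control replicate 2 was well above control replicate 1, without overlap between groups. The log2 fold change was 1.02 (SE 0.21, 95% interval 0.52 to 1.51, limma adjusted p = 0.0371). The call ended with no filter (limma adjusted p = 0.0844) and without a variance trend (limma adjusted p = 0.0796). Without mutant replicate 1 the adjusted p was 0.0625, and without mutant replicate 2 it was 0.0612, at log2 fold changes of 1.01 and 1.02. Without control replicate 1 the log2 fold change was 0.68 and without control replicate 2 it was 1.35, both called. Of the 8 endothelial markers 1 was called higher, where 4.96% of all genes tested were. The 8 markers summed to 2900.2 and 2977 in mutant skin and 2444 and 2338 in control skin. Their median log2 fold change was 0.13. The called marker, Tek, read 507 and 553 in mutant skin, against 268 and 230 in control skin, while Kdr and Cldn5 were lower on both mutant arrays. The part of these markers in the Igfbp7 change was not tested.

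Igfbp3 encodes the main IGF carrier of serum and has also been found in dermal cells. Its probe set of highest signal read 959 and 836 in mutant skin, against 617 and 500.4 in control skin. The groups did not overlap, and the log2 fold change was 0.68 (SE 0.14, limma adjusted p = 0.0356). With no filter the limma adjusted p was 0.0770, and without a variance trend 0.0839, both above the threshold. The call ended without mutant replicate 1 (log2 fold change 0.58, adjusted p = 0.132) and without control replicate 2 (0.53, adjusted p = 0.0881). The other probe set read 715 and 648 in mutant skin and 504 and 442 in control skin, and its log2 fold change of 0.52 just missed the threshold (limma adjusted p = 0.0519). Without control replicate 1 it passed (0.61, adjusted p = 0.0348).

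Igfbp6, which prefers IGF2 to IGF1, read 82.3 and 91.9 in mutant skin, against 82.9 and 44.1 in control skin. One control lay between the mutants and the other far below. The log2 fold change of 0.47 had a 95% interval from -0.20 to 1.14 (limma adjusted p = 0.379).

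**Figure D2:**
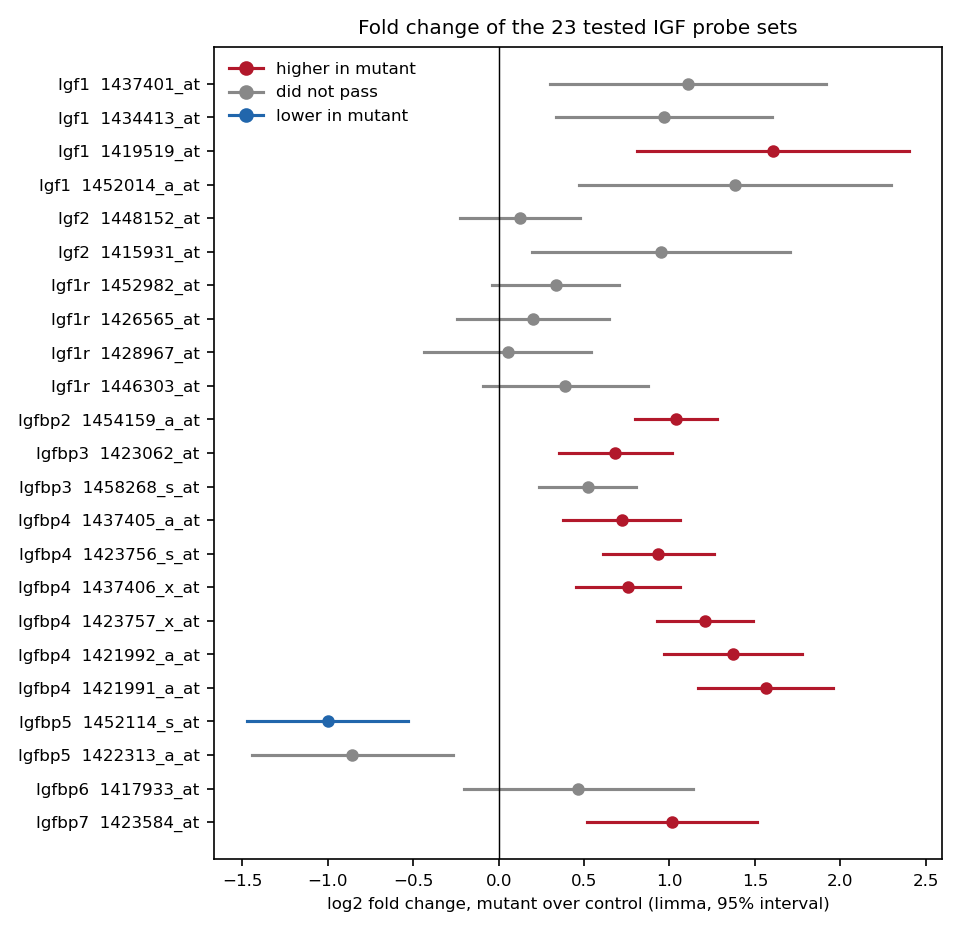
Log2 fold change of mutant over control with the 95% interval of the limma fit, for the 23 tested probe sets of the 9 IGF genes, in the order ligands, receptor, binding proteins. Red and blue points passed an adjusted p of 0.05. All 6 probe sets of Igfbp4 lie between 0.72 and 1.56, while 1 of the 4 of Igf1 passed and both of Igfbp5 lie left of 0, as they do not on the poly-A spike scale.

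Igf1 showed the widest spread between controls among the 9 genes. The brightest of its 4 probe sets read 2901 and 2326 in mutant skin, against 1790 and 807 in control skin. Both mutants were above both controls on all 4 probe sets, and control replicate 1 was above control replicate 2 on all 4, by 1.85- to 2.62-fold, where the mutants differed by 1.07- to 1.25-fold. The brightest probe set had a log2 fold change of 1.11 (SE 0.34, 95% interval 0.30 to 1.91) and did not pass (limma adjusted p = 0.111). Without control replicate 1 its log2 fold change was 1.68 (limma adjusted p = 0.00164), and without control replicate 2 it was 0.54 (limma adjusted p = 0.133).

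The Igf1 probe set that was called read 688 and 595 in mutant skin, against 307 and 136 in control skin. Its log2 fold change of 1.61 (SE 0.33, limma adjusted p = 0.0377) was kept without control replicate 1 (2.17), without control replicate 2 (1.04) and without mutant replicate 2 (1.71), and the call ended without mutant replicate 1 (adjusted p = 0.0619). That call also ended with no filter (limma adjusted p = 0.087), without a variance trend (0.0766) and with a robust variance trend (0.0855). Another 2 probe sets stood at 0.97 and 1.38 on the log2 scale (limma adjusted p = 0.0843 and 0.0863). Of these, both passed without control replicate 1, at 1.41 and 2.05 (adjusted p = 0.00191 and 4.10e-04), and the one at 1.38 also passed without control replicate 2, at 0.72 (adjusted p = 0.0299). Between the controls, the summed keratinocyte markers were lower in control replicate 1 (12818.5 against 17962), while the fibroblast markers (38433 against 33500.3), the muscle markers (10232 against 7267) and the macrophage markers (2826 against 2187) were higher. Their part in the Igf1 difference was not tested.

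The Igf1 window before the annotated start is chr10:87860861-87861110 on the plus strand. It is shown because it is the 1 window among the IGF genes that holds the TCF/LEF letters, marked in capitals; CTTTGAA begins 186 and CTTTGTA 116 bases before the start.
Igf1: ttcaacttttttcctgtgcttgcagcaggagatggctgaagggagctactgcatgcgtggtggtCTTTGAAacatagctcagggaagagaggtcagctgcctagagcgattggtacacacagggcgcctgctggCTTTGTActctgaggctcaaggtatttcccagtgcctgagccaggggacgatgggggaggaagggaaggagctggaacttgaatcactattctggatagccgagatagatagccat
The array gives no start site, and whether the transcripts read here began at this one is not known.

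Igf2, the fetal growth factor that is expressed from the paternal allele, did not pass. Its bright probe set read 6415 and 5129.7 in mutant skin, against 5686.5 and 4868 in control skin, and the groups overlapped. The fold change of 1.09 had a 95% interval from 0.856 to 1.39 (limma adjusted p = 0.672), and the log2 fold change of 0.12 turned to -0.04 without mutant replicate 1. The dim probe set read 236 and 171 in mutant skin, against 142 and 70.3 in control skin. Its mutants were above both controls, but the log2 fold change of 0.95 (95% interval 0.20 to 1.71) did not pass (limma adjusted p = 0.136). Among the fits without 1 array, it passed without control replicate 1, where it was 1.42 (limma adjusted p = 0.0108). The difference between the probe sets was not tested.

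Igf1r, the receptor, had small positive log2 fold changes on the 4 tested of its 5 probe sets, from 0.05 to 0.39, and none passed (limma adjusted p = 0.264 to 0.911; at an unadjusted p of 0.05 none passed either). The brightest read 466 and 350.1 in mutant skin, against 326 and 312 in control skin. Mutant replicate 1 was the highest array there, and the fold change of 1.26 had a 95% interval from 0.974 to 1.63. Without mutant replicate 1 its log2 fold change was 0.13. The probe set at 0.05 turned to -0.13 without mutant replicate 1 and to -0.12 without control replicate 2.

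**Figure D3:**
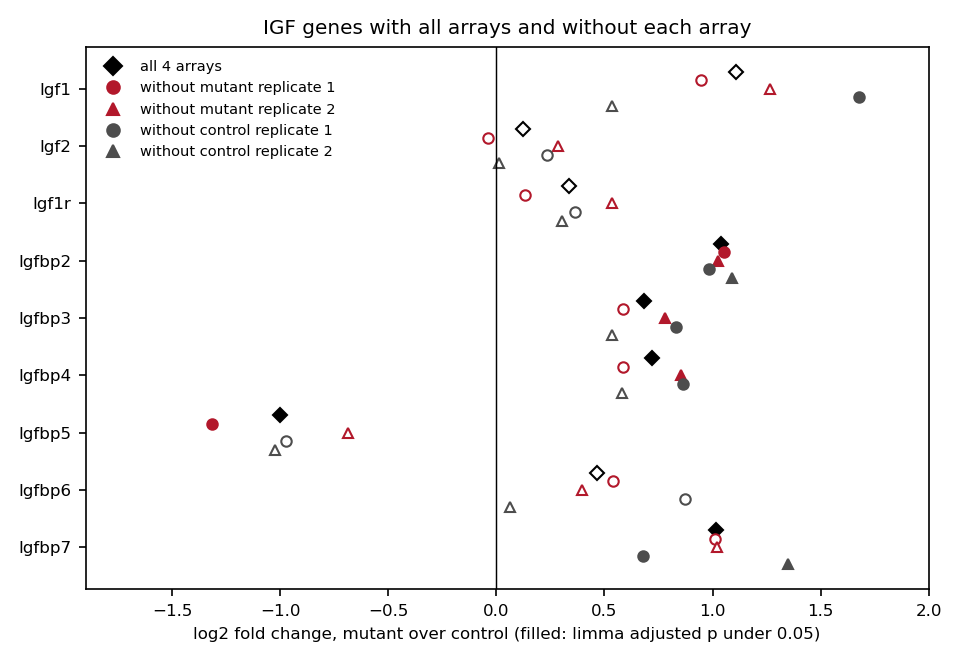
Log2 fold change of mutant over control for the 9 IGF genes (brightest probe set each) with all 4 arrays and without each array in turn; filled symbols passed a limma adjusted p of 0.05. Igfbp2 stays between 0.98 and 1.09 and is filled throughout, while Igf1 runs from 0.54 to 1.68 and is filled only without control replicate 1. The values of Igfbp5 are negative in all 5 fits, on the scale as deposited and not on that of the poly-A spikes.

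Genes that act with the IGFs were read from lists written from general knowledge. Of 38 pathway genes 34 were on the array under a single name and 30 were tested, of which 5 were called higher, 1 lower and 24 did not pass. This is 20.0% of those tested, where 8.74% of all genes were called, and the median log2 fold change was 0.15. Of the 5 called higher, Pappa and Irs4 had control means under the filter and were tested only through the mutant signals.

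The binding protein proteases held the largest fall among the pathway genes tested. Pappa2 encodes PAPP-A2, which cuts IGFBP3 and IGFBP5. It read 152 and 141 in mutant skin, against 756 and 943 in control skin, without overlap. It fell by 2.47 on the log2 scale (SE 0.14, limma adjusted p = 3.82e-04), and by 1.34 on the poly-A spike scale (adjusted p = 7.23e-04).

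Pappa encodes PAPP-A, which cuts IGFBP4. It read 98.0 and 91.1 in mutant skin, against 26.0 and 12.0 in control skin, a log2 fold change of 1.99 (SE 0.29, limma adjusted p = 0.0115). A second probe set of Pappa read 63.0 and 44.1 in mutant skin and 14.48 and 5.34 in control skin and was also called higher (limma adjusted p = 0.0249). The control means of both were under the filter, so they were tested through the mutant signals, and another offset would give another fold.

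The protease gene Ctsd read 1309 and 1326 in mutant skin, against 837 and 926 in control skin (log2 fold change 0.58, limma adjusted p = 0.0245). Its adjusted p was 0.0884 without mutant replicate 1, 0.0998 without mutant replicate 2 and 0.0529 without control replicate 1. Stc1, Stc2, Htra1 and Adam12, the other 4 of the 7 genes of this list, did not pass, with log2 fold changes from -0.44 to 0.91.

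In the receptor's signalling chain 3 of 19 tested genes were called higher, where 4.96% of all genes were, and 16 did not pass. Irs4, an insulin receptor substrate, read 91.7 and 81.0 in mutant skin, against 12.0 and 11.3 in control skin. Its log2 fold change of 2.28 (SE 0.21, limma adjusted p = 0.00218) rests on controls near the offset of 7.7 and under the filter. A second probe set of Irs4 was too dim to be tested and did not show the rise. It read 17.7 and 3.18 in mutant skin, against 24.6 and 12.6 in control skin, with overlap. Grb14, an adaptor that inhibits the insulin receptor, read 116 and 144 in mutant skin, against 37.8 and 33.4 in control skin (log2 fold change 1.66, SE 0.19, limma adjusted p = 0.00491). Irs1, the widely expressed substrate, read 1864 and 1678 in mutant skin, against 1253 and 1181 in control skin. Its log2 fold change of 0.54 (limma adjusted p = 0.0329) was no longer called when mutant replicate 1 was left out (0.174 as adjusted p), nor without mutant replicate 2 (0.0699) or control replicate 2 (0.0988). The 16 that did not pass, among them the kinase genes Akt1, Akt2, Pdpk1 and Mtor and the Foxo transcription factor genes, had log2 fold changes from -0.33 to 0.68.

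Other receptors and RNA-binding proteins of the family did not pass. The log2 fold change of Insr was -0.26 (limma adjusted p = 0.427), and 0.84 on the poly-A spike scale; that of Igf2r, the clearance receptor of IGF2, was 0.20 (limma adjusted p = 0.844), and ran from -0.47 without control replicate 2 and -0.26 without mutant replicate 1 to 0.87 without control replicate 1. Igf2bp1 and Igf2bp3, which bind the Igf2 mRNA, had log2 fold changes of -0.18 and -0.15 (limma adjusted p = 0.592 and 0.418), which were 0.93 and 0.99 on the poly-A spike scale; the other probe sets of Igf2bp1 disagreed, from -1.08 to 0.31, and none passed. Insrr, Igfbp1 and Igfals, whose signals were between 1.20 and 8.77 over the 4 arrays, were too dim to be tested.

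Genes outside the family whose proteins share the IGFBP domain were called in both directions, with Ccn4 the 1 lower gene and above 0 (0.41) on the poly-A spike scale. Of the 6 tested of 9, 2 were called higher, 1 lower and 3 did not pass, where 4.96% of all genes were called higher and 3.78% lower. Both higher genes, Kazald1 and Esm1, had control means under the filter and were tested only through the mutant signals. Kazald1, a secreted protein of bone, read 180.4 and 139.9 in mutant skin, against 8.80 and 22.2 in control skin (log2 fold change 2.91, SE 0.31, limma adjusted p = 0.00379). The 3 tested bone markers were higher in the same arrays, at 1089 and 588 in sum against 73.9 and 55.9, and their part in the Kazald1 change was not tested. Esm1, a proteoglycan of endothelial cells, read 53.7 and 67.1 in mutant skin, against 21.7 and 16.8 in control skin (log2 fold change 1.34, limma adjusted p = 0.0214), with a call that ended without mutant replicate 2 (adjusted p = 0.0979). Ccn4, a matricellular protein also known as Wisp1 and named as a Wnt-induced gene, read 268 and 203 in mutant skin, against 369 and 411 in control skin. Its log2 fold change was -0.72 (limma adjusted p = 0.0468) and 0.41 on the poly-A spike scale, and its call ended without mutant replicate 2 (adjusted p = 0.179) or control replicate 2 (adjusted p = 0.118).

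Imprinted genes of fetal growth, the group to which Igf2 belongs, did not pass in any of 8 tested cases (0 called by limma, and 0 at an unadjusted p of 0.05). Over all genes tested 8.74% were called, so 0 of 8 does not set these genes apart. Their median log2 fold change was 0.16. With all arrays the largest were those of Magel2, at 0.48 (limma adjusted p = 0.493; -0.06 without control replicate 2 and 1.02 without control replicate 1), and Mest, which read 7392 and 5894 in mutant skin, against 6304 and 4788 in control skin (log2 fold change 0.26, limma adjusted p = 0.421).

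**Figure D4:**
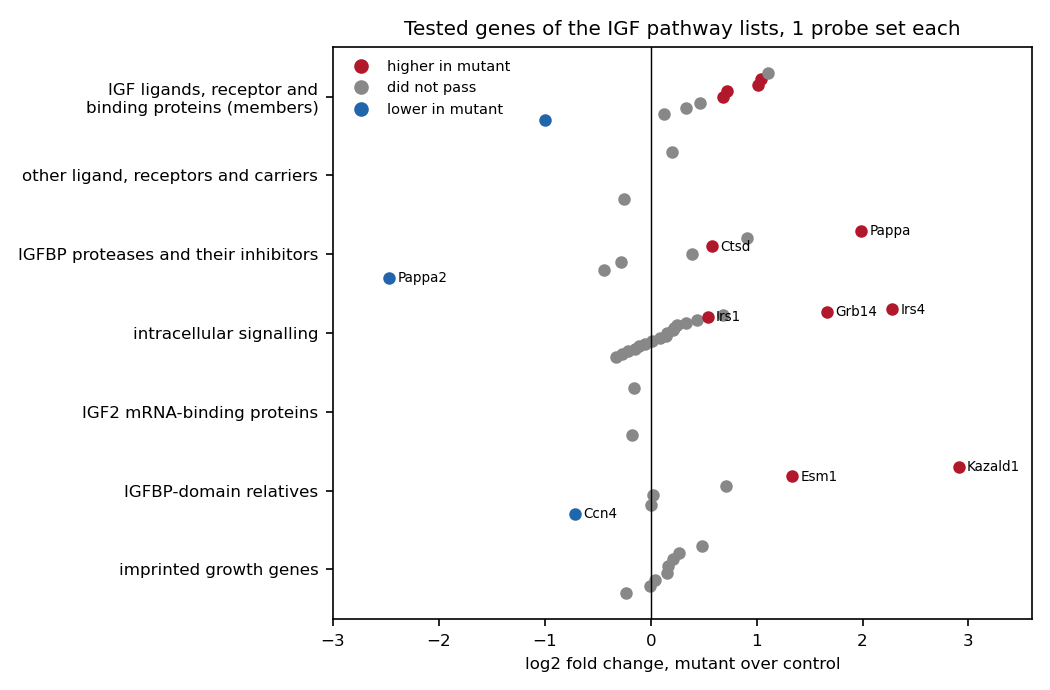
Log2 fold change of mutant over control for every tested gene of the IGF family and of the lists of genes that act with it, 1 point per gene, with called genes outside the family named. Pappa2 at -2.47 and Kazald1 at 2.91 lie at the ends. No imprinted gene or mRNA-binding protein passed, where 8.74% of all genes tested did. On the poly-A spike scale Ccn4 and Igfbp5 turn to values above 0.

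The genes with the most similar profile were sought among 11548 other genes by the root mean square difference of centred log2 signals over the 4 arrays, which describes likeness of size and direction only. For Igfbp2, the gene with the largest called rise on the brightest probe set per gene, they were Endod1, Plcxd2 and Slc66a1, at differences of 0.019 to 0.037 on the log2 scale. For Igfbp5, they were the transcription factor gene Hlf, Sh3bgr and the growth factor gene Gdnf, at 0.057 to 0.087. Gdnf read 29.6 and 19.9 in mutant skin, against 63.5 and 55.6 in control skin (limma adjusted p = 0.0469). Hlf read 29.5 and 17.8 in mutant skin, against 52.0 and 55.7 in control skin. For Gdnf and Hlf the mutant signals were under the filter, so these genes were tested only through the control signals. Hlf and Sh3bgr did not pass (limma adjusted p = 0.0697 and 0.0722). On the poly-A spike scale the direction of Igfbp5 itself turned (log2 fold change 0.15).

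No IGF probe set stands among the 170 probe sets of the authors' deposited table of changes as it was held here, which may be a part of it. None of the pathway genes, IGFBP-domain relatives and imprinted genes stands there either. The cell type markers were not looked up. By the methods' t-test, which its header names, at p 0.01 and at least 2-fold, none of the 23 IGF probe sets passed, against 0.422% of all tested probe sets (4 of the 23 had an unadjusted p under 0.05 by that test). That test was run here on the deposited MAS5 signals, whereas the authors' table was made from GCRMA values, so the results are not the same criterion on the same values.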

How the data were processed

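The arrays were deposited as signal intensity per probe set, which the authors made with MAS5 in GCOS, per the submitters' processing notes; the scaling target is not given in the sources used here, and probe-level data and detection calls were not used here. The authors' deposited list, as held here and perhaps in part, gives, for 170 probe sets, a fold (ratio of mutant to control) and each sample's ratio to the control mean, from GCRMA values filtered by a Welch test at p 0.01 and a 2-fold change, per the file headers. It was used only to look up the probe sets of the IGF genes, the pathway genes, the IGFBP-domain relatives and the imprinted genes.

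Of 45037 probe sets, 34945 had 1 gene symbol, 932 several and 9160 none, besides 64 controls. Signals were offset by 7.71 (percentile 25 of all values) and log2-transformed, and the 22519 with a mean signal of at least 31.1 were fitted with limma 3.58.1 in R 4.3.3 (eBayes with a variance trend), with Benjamini-Hochberg adjustment at 0.05 over all of them. Each group has 2 arrays, so the number of arrays limits the precision. The limma p-values weigh the difference between groups against the spread between arrays of a group, moderated by a trend over all tested probe sets. Part of this spread may be technical, but the mutant arrays differed in Xist and so were not repeats of 1 sample. An exact permutation test of 2 against 2 arrays cannot go below a two-sided p of 0.333. Per gene, the probe set of highest mean signal was used.

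The text names all 9 IGF genes. Of each list it names up to 4 called genes with the largest change, and the 2 with the largest change where none was called; for the IGF genes with the largest called rise and fall it names the 3 with the closest profiles. Further members of short lists are given to complete the account. The members and lists were chosen with earlier results of these data known. Some genes of the lists are not reported here. Of the erythroid markers 0 of 2 were called (1 at an unadjusted p under 0.05 in limma), and of the nerve markers 1 of 5 was higher. Over all genes tested, 4.96% were called higher and 8.74% in either direction. Erythroid markers summed to 284 and 345 in mutant skin, against 251 and 254 in control skin. Nerve markers summed to 976 and 1183 in mutant skin, against 1021 and 701 in control skin. The called nerve marker, Tubb3, had a control mean of 23.2, under the filter, and was tested only through the mutant signals. Sox10 had a log2 fold change of -0.74 and did not pass (limma adjusted p = 0.0546). Promoter windows are from RefSeq (GRCm38.p6), which matched all 9 genes. Alternatives were other offsets, filters, normalizations and variance models, a replicate block, leaving out each array and the methods' t-test.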

Additional observations from a re-analysis of the deposited data

How the results depend on the processing

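With 2 arrays per group, 1 array decides many calls, and the MAS5 signal has no stated background level here. Of the 11 IGF probe sets called, 5 kept their call at the adjusted threshold in all 12 limma refits other than poly-A scaling, those of Igfbp2 and 4 of the 6 of Igfbp4, and 4 of these 5 also passed an unadjusted p of 0.01 with at least 2-fold. Over 365 pairs of a probe set and an alternative, 284 stayed on their side of the threshold, 52 lost the call, 28 gained one and 1 called value reversed; 5 changed sign, that one and 4 values that were not called.

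Calls over all probe sets (1583), IGF probe sets (11) and IGF genes (5) ran from 982 to 2171, from 7 to 15 and from 2 to 5 when each array was left out. With no filter they were 880, 5 and 1. A filter at 124.5 gave 973 over all probe sets. Without a variance trend 5 IGF probe sets and 1 IGF gene were called, and at an unadjusted p of 0.01 with at least 2-fold, 7 and 2. Poly-A scaling called 20429, 21 and 8. Under it the log2 fold change reversed for Igfbp5 (0.15), Insr (0.84), Igf2bp1 (0.93), Igf2bp3 (0.99) and Ccn4 (0.41), which follows from its shift of the median to 1.09. The methods' t-test, chosen after seeing the data, called 0 of each after Benjamini-Hochberg adjustment (1701, 4 and 1 at an unadjusted p of 0.05, by the methods' t-test), and 95, 0 and 0 at its own threshold. Arrays of both groups are numbered 1 and 2, but nothing says that the numbers pair them, and same-numbered deviations correlated at 0.16. A replicate block called 2443 probe sets, 17 IGF probe sets and 6 IGF genes. For the count changes the cause was not tested.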

Other observations

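Igf2r, which removes IGF2 from the cell surface and is expressed from the maternal allele in mouse, differed more between the arrays of a group than between the groups. One probe set read 1360.1 and 717 in mutant skin, against 1374 and 535 in control skin. The other read 1047 and 327 in mutant skin, against 854 and 238 in control skin. In both groups replicate 1 was the higher array on both probe sets, although the labels do not pair the numbers. The log2 fold changes of 0.20 and 0.37 did not pass (limma adjusted p = 0.844 and 0.804).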
